A study of Mus musculus with 60 samples.

Results

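Branched-chain amino acid catabolism is represented here by 10 genes, chosen by name from the rows of 4 expression tables. They are Bcat2, Bckdha, Bckdhb, Dbt, Dld, Bckdk, Ppm1k, Ivd, Mccc1 and Mccc2, out of 54343 gene symbols in each table. All 10 were found in every table, and all 10 passed the filter on low values in every table, so no gene was lost from any comparison. The rule took rows by symbol alone, and the members were chosen with earlier results of these data known.

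Leucine, isoleucine and valine are first converted to their keto acids by a branched-chain aminotransferase, which in most tissues is the mitochondrial enzyme encoded by Bcat2. The keto acids are then oxidised in mitochondria by the branched-chain keto acid dehydrogenase complex, whose activity is set by a kinase that switches it off and a phosphatase that switches it on again. Liver is known for high dehydrogenase and low aminotransferase activity, whereas fat cells hold both, and in fat of obese rodents and people the pathway is known to be expressed at a low level. The leucine branch runs on through isovaleryl-CoA dehydrogenase and methylcrotonyl-CoA carboxylase towards ketone bodies and acetyl-CoA.

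The tissues were inguinal white fat and liver of diet-induced obese mice, measured as FPKM (fragments per kilobase of transcript per 1e6 mapped fragments) in bulk poly(A) RNA. In the Glp1r line, the groups were Glp1rfl/fl mice given mGIPR-Ab/P1, Glp1rWnt1-/- mice given vehicle and Glp1rfl/fl mice given vehicle. In the Gipr line, they were Giprfl/fl mice given mGIPR-Ab/P1, GiprSyn-/- mice given vehicle and Giprfl/fl mice given vehicle. Each group had 5 libraries per tissue, 60 in all, which the titles call biological replicates without tying them to animals, so p-values measure the spread between these samples. The conjugate, mGIPR-Ab/P1, joins a peptide to an antibody, and it was given only to floxed mice that carried no deletion. The knockouts are named after Wnt1 and Syn, names of genes of neural tissue, and the sources used here give no Cre line, dose, duration, age or sex. Glp1r did not exceed 0.0907 FPKM in fat or 0.356 FPKM in liver in any library, and Gipr spanned 2.16 to 7.46 FPKM in fat and at most 0.0149 FPKM in liver, so these tissues do not check a neural deletion.

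Estimated depth was 29.9 to 64.3 M fragments in fat and 31.8 to 57.3 M in liver (M for 1e6). The 9 white adipocyte markers summed to 12613 to 33501 FPKM in the fat libraries, and the 6 hepatocyte markers to 34345 to 58397 FPKM in the liver libraries. In fat, 6 libraries had a B cell marker score, the mean log2(FPKM + 1) of 8 genes, above 5. They were GiprSyn-/- libraries 1 and 5, Giprfl/fl mGIPR-Ab/P1 library 1, Glp1rWnt1-/- libraries 1 and 3, and Glp1rfl/fl vehicle library 2. Libraries of the Gipr line also differed in how GC-rich and GC-poor transcripts were represented. A GC index, the mean log2 deviation of the 25% of genes with the highest transcript GC minus that of the 25% with the lowest, spanned -0.58 to 0.42 in Gipr fat and -0.70 to 0.41 in Gipr liver, against -0.18 to 0.13 in both tissues of the Glp1r line.

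In fat, the genes of the first steps were among the most abundant of the 10. Across the 30 fat libraries, the median was 65.6 FPKM (range 37.9 to 101.5) for Bcat2, the mitochondrial aminotransferase, against 11.5 FPKM (7.74 to 13.6) in liver. The tissues did not overlap, and the medians stood 5.72-fold apart. The tables of the tissues were normalized separately by the authors, so levels are set side by side between tissues without a test.

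The decarboxylase subunits of the dehydrogenase complex were plentiful in both tissues. Bckdha, the alpha subunit, had a median of 81.1 FPKM (27.6 to 119.7) in fat and 133.6 FPKM (45.0 to 153.5) in liver, where it was the most abundant of the 10 genes. Bckdhb, the beta subunit, had medians of 54.4 FPKM (29.99 to 72.5) in fat and 50.6 FPKM (38.9 to 59.9) in liver. The ranges of both subunits overlapped between tissues. The ratio of Bckdha to Bckdhb had a median of 1.64 in fat and 2.66 in liver. Per GENCODE vM21, Bckdha shares 5155 bases with B3gnt8 on the opposite strand, and Bcat2, Bckdhb, Dbt, Ppm1k and Mccc1 overlap antisense or other non-coding genes there. The libraries were stranded, but no source used here says whether the quantification used strand, so reads of such pairs may not have been told apart. Dbt and Mccc1 also overlap Gm43651 and Gm43080 on their own strand, over 439 and 2643 bases, where strand does not separate reads.

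The alpha subunit carries the serine at which the complex is switched off, which is why its coding sequence is shown. The capitals mark the codon of that serine, residue 338 of 446, in transcript Bckdha-201 of GENCODE vM21 on chromosome 7. Dbt encodes the transacylase core of the complex, which swings the acyl group on a lipoate arm, and the capitals in its sequence mark the codon of the lipoate-bearing lysine, residue 105 of 482, in Dbt-201 on chromosome 3.
Bckdha serine codon: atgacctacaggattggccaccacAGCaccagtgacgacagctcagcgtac
Dbt lipoyl lysine codon: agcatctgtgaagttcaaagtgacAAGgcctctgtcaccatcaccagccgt

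Dbt was the least abundant subunit gene of the complex in both tissues, with a median of 22.3 FPKM (14.7 to 31.8) in fat and 26.0 FPKM (19.9 to 37.6) in liver. Dld encodes dihydrolipoamide dehydrogenase, which the complex shares with the pyruvate and oxoglutarate dehydrogenase complexes and the glycine cleavage system. It had the highest median of the 10 genes in fat, at 81.2 FPKM (56.2 to 115.0), against 49.7 FPKM (42.99 to 65.4) in liver.

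The kinase and the phosphatase of the complex were placed in opposite order in the tissues. Bckdk, the kinase that phosphorylates Bckdha and so inactivates the complex, had a median of 26.6 FPKM (21.6 to 34.1) in fat against 5.12 FPKM (3.60 to 7.12) in liver. Ppm1k, the mitochondrial phosphatase that reverses this, had a median of 2.42 FPKM (1.44 to 5.48) in fat against 18.0 FPKM (12.5 to 36.4) in liver. Neither gene overlapped between tissues, with medians 5.19-fold higher in fat for Bckdk and 7.45-fold higher in liver for Ppm1k. The ratio of Bckdk to Ppm1k within a library had a median of 11.1 (4.52 to 18.4) in fat and 0.289 (0.0988 to 0.436) in liver, so every fat library lay above 1 and every liver library below it.

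**Figure D1:**
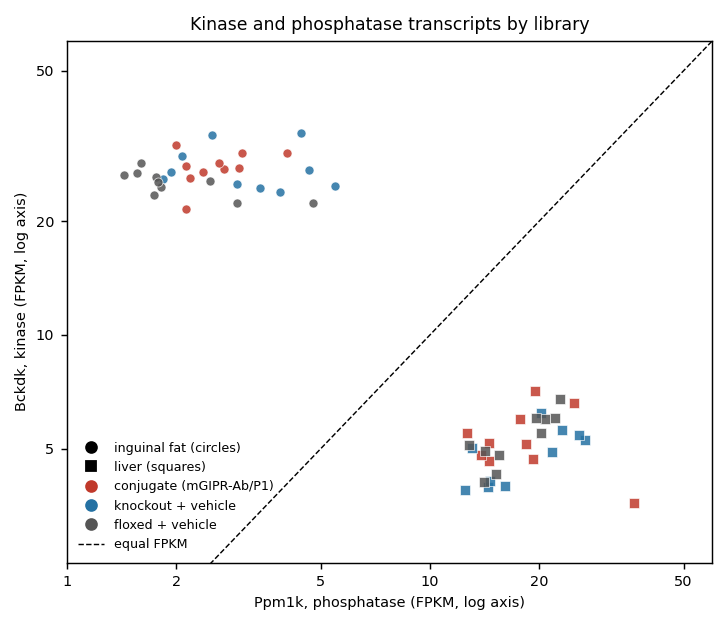
Ppm1k (horizontal) against Bckdk (vertical), both in FPKM on log axes, 1 point per library; circles are the 30 fat libraries, squares the 30 liver libraries, colours the groups, and the dashed line marks equal FPKM. All fat libraries lie above the line, with Ppm1k of 1.44 to 5.48 FPKM, and all liver libraries below it, with Ppm1k of 12.5 to 36.4 FPKM.

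Further along the leucine branch, Ivd, isovaleryl-CoA dehydrogenase, had medians of 57.6 FPKM (33.9 to 89.1) in fat and 50.3 FPKM (42.4 to 67.0) in liver. Mccc1 and Mccc2 encode the biotin-carrying alpha and the beta subunit of methylcrotonyl-CoA carboxylase. Mccc1 had a median of 54.2 FPKM (35.8 to 71.9) in fat and 23.9 FPKM (19.3 to 28.3) in liver, with no overlap, and Mccc2 had 45.8 FPKM (31.2 to 64.2) in fat and 31.5 FPKM (28.0 to 34.6) in liver. Mccc1 exceeded Mccc2 in every fat library, with ratios of 1.09 to 1.52, and fell short of it in every liver library, with ratios of 0.685 to 0.901. The capitals below mark the codon of the lysine to which biotin is attached, residue 677 of 717 in Mccc1-201, on chromosome 3.
Mccc1 biotin lysine codon: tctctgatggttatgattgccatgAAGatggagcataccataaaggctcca

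Among neighbours in the order of fat medians, from Dld through Bckdha, Bcat2, Ivd, Bckdhb, Mccc1, Mccc2 and Bckdk to Dbt, the ranges overlapped at each step. Ppm1k, the last, lay below Dbt without overlap. In liver the order was Bckdha, Bckdhb, Ivd, Dld, Mccc2, Dbt, Mccc1, Ppm1k, Bcat2 and Bckdk. There Dld and Mccc2 did not overlap, nor did Bcat2 and Bckdk, whereas the other neighbours did, Bckdha and Bckdhb through a single library with 45.0 FPKM of Bckdha.

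In fat of the Gipr line, the leucine branch gene Ivd rose with both the conjugate and the knockout, and Ppm1k and Dbt rose with the knockout. The conjugate changed 1 of the 10 genes, while 7.02% of the 13604 genes tested were called (limma, Benjamini-Hochberg adjusted p under 0.05 over all genes tested). The knockout changed 3 of 10, all higher, while 12.3% of all genes tested were called. The median log2 fold change of the 10 was 0.21 with the conjugate and 0.30 with the knockout, beside 0.11 and 0.09 over all genes tested. It was positive for 8 of 10 genes with the conjugate and 9 of 10 with the knockout, while 66.9% and 61.3% of all genes tested were positive. Under median-of-ratios scaling the medians of the 10 were 0.11 with the conjugate and 0.19 with the knockout, beside 0.03 and -0.01 over all genes. That scaling also turned the balance of calls over all genes, with 252 higher and 492 lower against 579 and 376 for the conjugate, and 560 higher and 1050 lower against 899 and 771 for the knockout. Both contrasts share the same 5 vehicle libraries. Fold changes are on the log2(FPKM + 1) scale with the standard error of the fit, and in bulk tissue fewer cells of a type and less RNA per cell cannot be told apart.

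**Figure D2:**
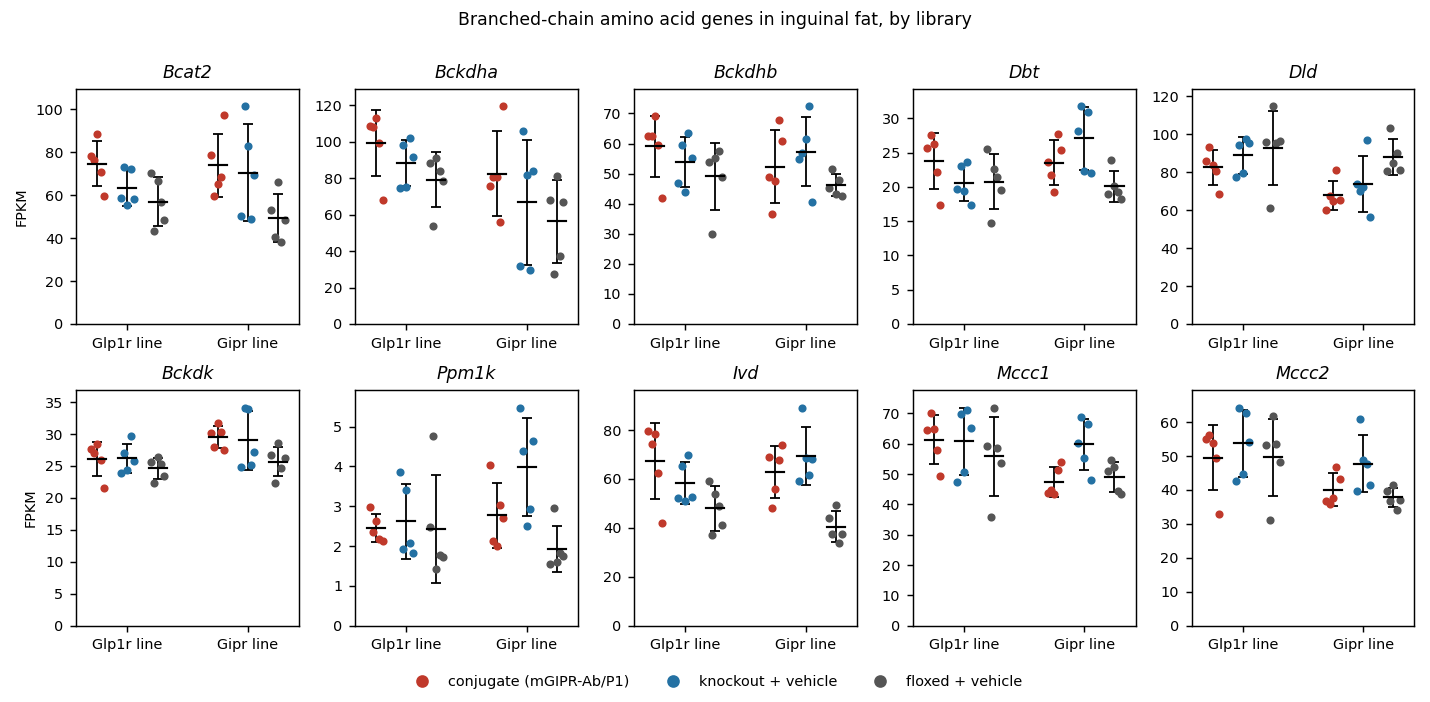
FPKM of the 10 genes in the 30 fat libraries, 1 panel per gene, with the Glp1r line left and the Gipr line right in each panel; points are libraries, and bars show the mean and SD of 5 libraries. In the Gipr line the 5 knockout libraries lie above the 5 vehicle libraries for Ivd, whereas Bckdha is split within the knockout group between 29.7 and 105.9 FPKM.

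Ivd encodes the acyl-CoA dehydrogenase that oxidises isovaleryl-CoA, the product of leucine at the dehydrogenase complex. It had 69.2, 47.9, 56.1, 67.6 and 73.9 FPKM with the conjugate, 59.2, 89.1, 68.7, 61.5 and 68.3 FPKM in the knockout and 44.1, 37.5, 49.5, 33.9 and 37.7 FPKM in vehicle libraries of the Gipr line. Every knockout library lay above every vehicle library, and the conjugate group overlapped the vehicle group through library 2 alone. Group means were 62.9 ± 10.6 FPKM with the conjugate, 69.3 ± 11.8 FPKM in the knockout and 40.5 ± 6.22 FPKM with vehicle (SD, n = 5 each).

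The log2 fold change of Ivd was 0.76 ± 0.14 with the knockout (adjusted p = 0.00551) and 0.62 ± 0.14 with the conjugate (adjusted p = 0.0197). The knockout call was made without each of the 10 libraries in turn, with adjusted p of 0.00647 to 0.0179. The conjugate call was lost without conjugate library 5, vehicle library 4 or vehicle library 5, with adjusted p of 0.0555, 0.0531 and 0.0515, and under median-of-ratios scaling, with 0.0623. It was also lost without the libraries of a higher series of library numbers. In Gipr fat these were conjugate library 5 and knockout library 5, with no vehicle library. With the B cell score as a covariate the knockout value was 0.79 with an adjusted p of 0.0526.

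The RefSeq promoter window of Ivd, from 250 bases before to 50 after the start of the gene, was chr2:118861744-118862043 on the plus strand of GRCm38.p6. It is shown because Ivd is the gene called in both fat contrasts. Promoter entries were matched by symbol for all of the 10 genes but Dbt. The windows were searched on both strands for CCAAT (the CCAAT box), GGGCGG (the GC box), GCATGCGC (the core of the NRF1 motif) and AAGGTCA (a half-site of oestrogen-related receptors). Capitals mark the 4 matches to CCAAT, here all as its reverse complement, and the other motifs had 0 matches in this window. Of the 32851 RefSeq promoters, 37.4% held CCAAT, 35.7% GGGCGG, 2.71% GCATGCGC and 4.72% AAGGTCA.
Ivd promoter: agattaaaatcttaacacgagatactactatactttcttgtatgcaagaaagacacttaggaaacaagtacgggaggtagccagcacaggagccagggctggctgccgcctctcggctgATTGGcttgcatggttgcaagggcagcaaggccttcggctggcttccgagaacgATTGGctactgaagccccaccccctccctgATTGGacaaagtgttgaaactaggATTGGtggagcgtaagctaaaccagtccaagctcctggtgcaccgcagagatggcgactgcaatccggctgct

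Ppm1k, the phosphatase, had the lowest level of the 10 genes in fat and rose with the knockout. It had 4.03, 2.12, 1.99, 3.04 and 2.70 FPKM with the conjugate, 5.48, 4.40, 2.51, 2.94 and 4.63 FPKM in the knockout and 1.56, 2.95, 1.60, 1.82 and 1.76 FPKM with vehicle. Knockout libraries 3 and 4 lay within the vehicle range, since vehicle library 2 stood apart from the other 4 vehicle libraries. Ppm1k had a log2 fold change of 0.75 ± 0.19 with the knockout (adjusted p = 0.0221) and 0.36 ± 0.19 with the conjugate (adjusted p = 0.265). The conjugate value was not called. The ratio of Bckdk to Ppm1k averaged 8.04 ± 3.43 in the knockout and 14.2 ± 4.10 with vehicle (SD, n = 5 each), with ranges of 4.52 to 13.5 and 7.57 to 17.9 that overlapped.

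Markers of other cell types also differed between these groups. With the Gipr knockout, 1 of 5 endothelial markers (Cdh5, -0.71) and 2 of 6 macrophage markers (Cd68, -0.89, and Adgre1, -0.70) fell. Of 6 fibroblast and preadipocyte markers, Dpp4 rose (0.82) and Col3a1 fell (-0.83) with the knockout, and Dcn rose (0.54) and Col3a1 fell (-0.94) with the conjugate, which gave 0 calls among the endothelial and macrophage markers by limma. The endothelial markers summed to 249 to 360 FPKM with the conjugate, 215 to 318 FPKM in the knockout and 361 to 441 FPKM with vehicle, with neither group overlapping vehicle. The macrophage markers summed to 714 to 1013 FPKM with the conjugate, 648 to 1124 FPKM in the knockout and 645 to 1181 FPKM with vehicle. The fibroblast and preadipocyte markers summed to 1276 to 1763 FPKM with the conjugate, 1214 to 1689 FPKM in the knockout and 1215 to 1743 FPKM with vehicle. Of 9 white adipocyte markers, Cfd rose in both contrasts and Lep fell with the knockout. Of 6 brown adipocyte markers, only Elovl3 was called, with -1.78 for the conjugate and -1.75 for the knockout. It averaged 0.185 FPKM with the conjugate, 0.231 FPKM in the knockout and 3.12 FPKM with vehicle, and it also fell with the Glp1r conjugate (-1.56). The brown adipocyte markers summed to 44.4 to 102 FPKM with the conjugate, 44.6 to 139 FPKM in the knockout and 47.4 to 93.4 FPKM with vehicle. With the white adipocyte score as a covariate, the knockout values were 0.64 for Ivd, 0.88 for Ppm1k and 0.40 for Dbt (adjusted p = 0.00397, 0.00469 and 0.0330), and the conjugate value of Ivd was 0.47 (adjusted p = 0.0290). None of these markers was at 0 in a whole group, and the part of the endothelial, macrophage, fibroblast and brown adipocyte markers was not tested.

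B cell markers moved with Ppm1k. Of 8 markers, 5 rose with the knockout and 0 with the conjugate, with median log2 fold changes of 2.91 and 1.79. Their summed level was 22.2 to 608 FPKM with the conjugate, 99.0 to 675 FPKM in the knockout and 7.92 to 196 FPKM with vehicle, and none of the 8 was at 0 in a whole group. Across both lines, the 6 fat libraries with a B cell score above 5 had 3.41 to 5.48 FPKM of Ppm1k, and the other 24 had 1.44 to 4.40 FPKM, of which 1 lay in the range of the 6. Without those 6 libraries the knockout value of Ppm1k was 0.54 (adjusted p = 0.0983), and with the B cell score as a covariate it was 0.33 (adjusted p = 0.442). The call was also lost without knockout library 1 or 5, or vehicle library 1, 3 or 5, with adjusted p of 0.0509 to 0.0610.

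**Figure D3:**
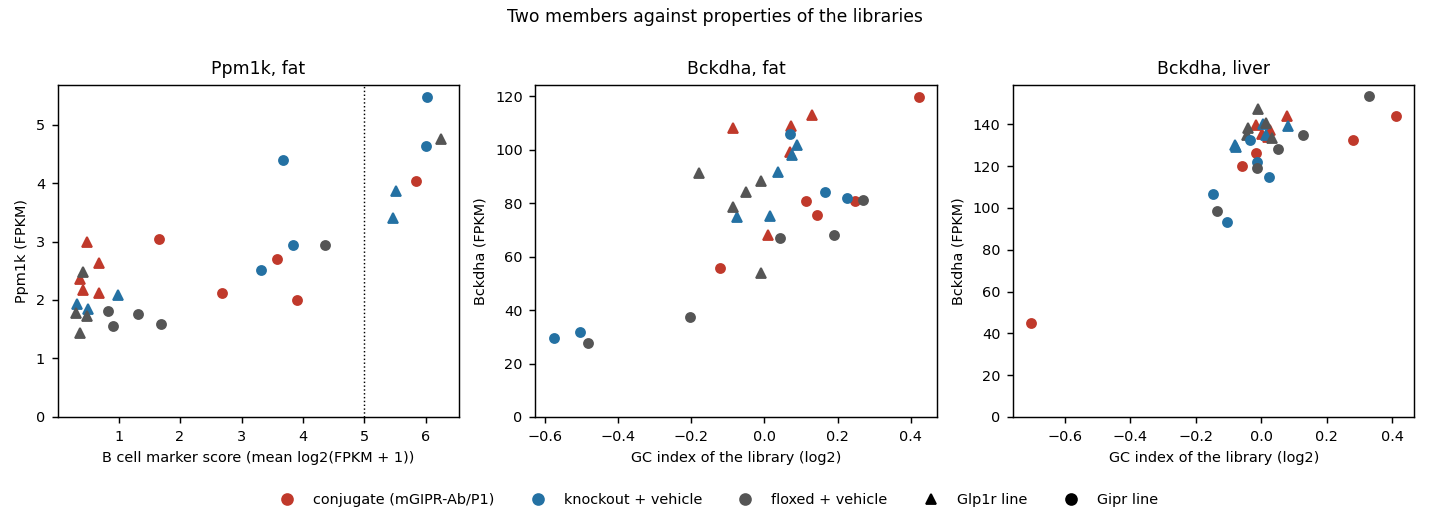
Ppm1k in fat against the B cell marker score (left), and Bckdha in fat (middle) and in liver (right) against the GC index of the library, in FPKM, 1 point per library; colours are groups, triangles the Glp1r line and circles the Gipr line, and the dotted line marks a score of 5. Ppm1k is 3.41 to 5.48 FPKM right of the dotted line, and Bckdha is lowest in the Gipr libraries with the lowest GC index.

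The promoter window of Ppm1k is shown beside that of Ivd because it is the other single-enzyme gene called in fat. It was chr6:57535438-57535737 on the minus strand of GRCm38.p6, again from RefSeq. Capitals mark 2 matches to CCAAT and 2 to GGGCGG, which did not overlap each other, and the other motifs had 0 matches.
Ppm1k promoter: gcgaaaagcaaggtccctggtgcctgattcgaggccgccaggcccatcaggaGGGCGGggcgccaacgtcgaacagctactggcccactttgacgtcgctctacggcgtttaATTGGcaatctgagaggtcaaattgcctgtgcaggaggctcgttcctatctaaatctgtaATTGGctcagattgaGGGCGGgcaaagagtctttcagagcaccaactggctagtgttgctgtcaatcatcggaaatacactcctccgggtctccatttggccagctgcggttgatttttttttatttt

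Dbt, the core of the complex, had 23.7, 21.8, 19.2, 27.7 and 25.4 FPKM with the conjugate, 28.2, 31.8, 22.3, 31.0 and 22.1 FPKM in the knockout and 19.0, 23.95, 20.1, 19.3 and 18.2 FPKM with vehicle in Gipr fat. Knockout libraries 3 and 5 lay below vehicle library 2, and the other 3 lay above all vehicle libraries. Its log2 fold change with the knockout was 0.40 ± 0.13, with an adjusted p of 0.0496 just under the threshold, and with the conjugate it was 0.21 ± 0.13 (adjusted p = 0.310). The knockout call was lost without knockout library 1, 2 or 4 or vehicle library 1, 3, 4 or 5, with adjusted p of up to 0.113, and in 9 of 15 other settings.

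The remaining subunits of the complex were not called in Gipr fat. Bckdhb, the beta decarboxylase subunit, averaged 52.2 ± 12.2 FPKM with the conjugate, 57.3 ± 11.6 FPKM in the knockout and 46.1 ± 3.67 FPKM with vehicle (SD, n = 5 each), with log2 fold changes of 0.15 ± 0.16 and 0.29 ± 0.16. Bckdha, the alpha subunit, had 75.7, 80.7, 81.0, 55.9 and 119.7 FPKM with the conjugate, 31.9, 106, 82.0, 29.7 and 84.0 FPKM in the knockout and 68.2, 27.6, 81.3, 37.4 and 66.9 FPKM with vehicle. The groups overlapped widely, and in the knockout group libraries 1 and 4 stood far below the other 3. Its log2 fold change was 0.61 ± 0.38 with the conjugate (adjusted p = 0.333, 95% interval -0.19 to 1.41) and 0.17 ± 0.38 with the knockout (adjusted p = 0.784).

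The spread of Bckdha followed the GC index. The 5 Gipr fat libraries with an index below -0.1 had 27.6 to 55.9 FPKM, and the other 10 had 66.9 to 119.7 FPKM, without overlap. Bckdha has the highest median transcript GC of the 10 genes, 58.4%, against 40.6% for Dld, which has the lowest. With the GC index as a covariate, a setting chosen after seeing the data, 6 of the 10 genes were called with the Gipr knockout, 5 higher and 1 lower. The genes added were Bckdha (0.35, adjusted p = 0.0485), Bcat2 (0.56, adjusted p = 0.0120) and Dld (-0.31, adjusted p = 0.0306). The share of all genes called in that fit is not given here, so the count of 6 has no background beside it.

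Dld, the shared dehydrogenase, pointed the other way from the rest of the complex. In Gipr fat it had 60.3, 67.6, 64.7, 81.0 and 65.3 FPKM with the conjugate, 73.6, 70.0, 72.2, 97.1 and 56.2 FPKM in the knockout and 80.5, 103, 84.95, 90.0 and 81.3 FPKM with vehicle. Of the conjugate libraries, 4 lay below all vehicle libraries and library 4 lay just above the lowest of them. For Dld the log2 fold change was -0.37 ± 0.13 with the conjugate (adjusted p = 0.0897) and -0.27 ± 0.13 with the knockout (adjusted p = 0.168), neither called.

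Bcat2, the aminotransferase, had 78.6, 59.8, 65.3, 68.5 and 97.4 FPKM with the conjugate, 50.1, 102, 82.8, 48.8 and 69.5 FPKM in the knockout and 53.2, 40.7, 66.0, 37.9 and 48.4 FPKM with vehicle. Conjugate libraries 1, 4 and 5 lay above all vehicle libraries, and the knockout group spanned both. For Bcat2 the log2 fold change was 0.58 ± 0.21 with the conjugate (adjusted p = 0.103) and 0.48 ± 0.21 with the knockout (adjusted p = 0.133), neither called. Skeletal muscle also expresses Bcat2 strongly, and the 8 muscle markers summed to 40.6 to 1585 FPKM with the conjugate, 34.0 to 219 FPKM in the knockout and 49.6 to 632 FPKM with vehicle. Of these markers 0 of 8 were called in either contrast by limma, and their part in the Bcat2 values was not tested. Over the 15 Gipr fat libraries, Bcat2 had a Pearson correlation of 0.16 with the muscle score. It was 0.67 with the GC index and 0.83 with the white adipocyte score, over points that share their libraries.

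The kinase and the carboxylase were not called in Gipr fat. Bckdk averaged 29.5 ± 1.78 FPKM with the conjugate, 29.0 ± 4.63 FPKM in the knockout and 25.7 ± 2.34 FPKM with vehicle (SD, n = 5 each), with log2 fold changes of 0.20 ± 0.10 and 0.16 ± 0.10. Mccc1 had -0.05 ± 0.11 with the conjugate and 0.27 ± 0.11 with the knockout (adjusted p = 0.108), and Mccc2 had 0.08 ± 0.11 and 0.31 ± 0.11 (adjusted p = 0.0834).

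In fat of the Glp1r line, none of the 10 genes passed the test. The conjugate gave 0 calls among the 10, where 3.39% of the 12686 genes tested were called by limma. Of the 10, 2 had an unadjusted p under 0.05, namely Ivd and Bcat2, both higher, as did 2276 of all 12686 genes tested. The knockout gave 0 calls among the 10 and 0% among all genes tested, of which 593 had an unadjusted p under 0.05 and 0 of the 10 did. The median log2 fold change of the 10 was 0.18 with the conjugate and 0.13 with the knockout, beside 0.05 and 0.04 over all genes tested, and 9 of 10 were positive in each, while 59.9% and 61.6% of all genes tested were. Under median-of-ratios scaling or quantile normalization 8 of 10 were positive in each.

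Ivd again had the largest value of the 10 with the conjugate. It had 79.6, 74.5, 78.2, 62.5 and 42.2 FPKM with the conjugate, 52.3, 65.1, 51.2, 69.6 and 52.8 FPKM in the knockout and 59.3, 36.9, 53.7, 48.9 and 41.0 FPKM with vehicle. Conjugate libraries 1 to 4 lay above all vehicle libraries, while library 5 lay among them. The log2 fold change was 0.47 ± 0.17 with the conjugate (adjusted p = 0.162) and 0.28 ± 0.17 with the knockout (adjusted p = 0.983). Without conjugate library 5 the conjugate value was 0.62 with an adjusted p of 0.0237.

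Conjugate library 5 had the lowest value of its group for all 10 genes. It also stood apart in its markers, with a white adipocyte score of 9.90, against 10.68 to 10.75 in the other conjugate libraries, and a macrophage score of 7.42, against 4.46 to 5.08. These scores are mean log2(FPKM + 1) of 9 and 6 genes. With the adipocyte score as a covariate the conjugate value of Ivd was 0.29 (adjusted p = 0.0625), and Dld (-0.30, adjusted p = 0.0129) and Mccc2 (-0.21, adjusted p = 0.0255) were called lower, while the part of the macrophage score was not tested. Across the 15 Glp1r fat libraries, 9 of the 10 genes had a Pearson correlation of 0.74 to 0.97 with the adipocyte score, and Ppm1k had -0.59, over points that share their libraries. Vehicle library 2, which had a B cell score of 6.25, had the lowest vehicle value for 9 of the 10 and the highest for Ppm1k. Bcat2 had 78.1, 76.6, 88.3, 70.7 and 59.8 FPKM with the conjugate, 58.8, 73.0, 55.4, 72.3 and 58.1 FPKM in the knockout and 70.3, 43.2, 66.7, 56.7 and 48.3 FPKM with vehicle, with overlapping groups. Its log2 fold change was 0.40 ± 0.14 with the conjugate (adjusted p = 0.140) and 0.17 ± 0.14 with the knockout.

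Among the subunits of the complex, the conjugate gave 0.33 ± 0.16 for Bckdha, 0.28 ± 0.18 for Bckdhb, 0.19 ± 0.15 for Dbt and -0.15 ± 0.14 for Dld in Glp1r fat. The knockout gave 0.17 for Bckdha, 0.15 for Bckdhb, 0.00 for Dbt and -0.04 for Dld. The kinase Bckdk gave 0.08 ± 0.08 with the conjugate and 0.08 ± 0.08 with the knockout. Ppm1k gave 0.08 ± 0.22 with the conjugate and 0.12 ± 0.22 with the knockout, and its highest vehicle value, 4.75 FPKM, was in library 2. Mccc1 and Mccc2 gave 0.16 ± 0.17 and 0.00 ± 0.19 with the conjugate.

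**Figure D4:**
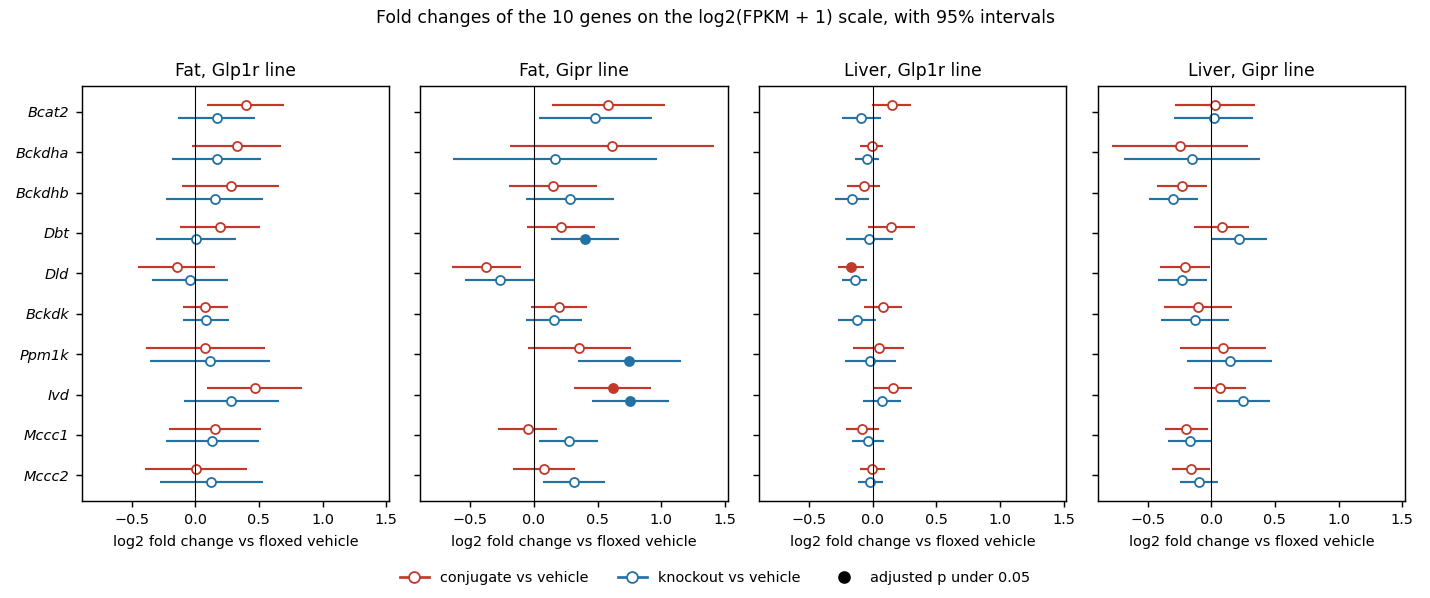
Log2 fold changes of the 10 genes on the log2(FPKM + 1) scale against floxed vehicle, with 95% intervals of the fit; red is the conjugate, blue the knockout, and filled points passed an adjusted p of 0.05. Filled points are Ivd in both contrasts and Ppm1k and Dbt with the knockout in Gipr fat, and Dld with the conjugate in Glp1r liver.

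In liver, Dld was the only one of the 10 genes called in any of the 4 contrasts with vehicle. With the conjugate in the Glp1r line, 1 of 10 changed, Dld, which fell, while 10.4% of the 10858 genes tested were called. Dld had 45.5, 46.6, 48.0, 48.5 and 47.1 FPKM with the conjugate, 46.4, 49.6, 44.6, 52.1 and 48.0 FPKM in the knockout and 49.6, 53.2, 53.9, 54.9 and 54.3 FPKM with vehicle. All 5 conjugate libraries lay below all 5 vehicle libraries, and the knockout group lay between and overlapped both. The log2 fold change was -0.17 ± 0.05 with the conjugate (adjusted p = 0.0334), with means of 47.1 ± 1.16 FPKM and 53.2 ± 2.12 FPKM with vehicle (SD, n = 5 each). Estimated depth also separated these groups, at 31.8 to 35.4 M fragments with the conjugate and 47.6 to 54.8 M with vehicle, and its part in the result was not tested. Of 5 erythrocyte markers 3 fell in the same contrast, Hbb-bt (-1.22), Hbb-bs (-1.11) and Hba-a2 (-1.14), with sums of 475 to 889 FPKM with the conjugate and 1016 to 1522 FPKM with vehicle. Krt8 (-0.67) and Krt18 (-0.57), of the mammary and skin epithelium list, fell too, from means of 152 and 99.9 FPKM with vehicle. Krt5 and Krt14 of that list were not detected in either group. Of 6 hepatocyte markers, only Serpina1a was called, and it rose (0.40). Their part in the Dld result was not tested. The call was lost without conjugate library 1, 3 or 5 or vehicle library 2, 3, 4 or 5, with adjusted p of 0.0515 to 0.0768, and under quantile normalization, with 0.0651.

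The other 9 genes were not called with the conjugate in Glp1r liver. Ivd averaged 50.5 ± 3.45 FPKM with the conjugate and 45.2 ± 2.91 FPKM with vehicle (log2 fold change 0.16 ± 0.07, adjusted p = 0.168), and Bcat2 12.7 ± 0.703 FPKM with the conjugate and 11.4 ± 0.824 FPKM with vehicle (0.15 ± 0.07, adjusted p = 0.191). The Glp1r knockout gave 0 calls among the 10 and 0% among all genes tested, of which 1048 had an unadjusted p under 0.05. Dld and Bckdhb had an unadjusted p under 0.05 there, with log2 fold changes of -0.14 ± 0.05 and -0.16 ± 0.06. The median of the 10 was 0.02 with the conjugate and -0.04 with the knockout, beside 0.01 and -0.04 over all genes tested.

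In Gipr liver, none of the 10 genes was called in either contrast. The conjugate gave 0 calls among the 10, where 4.34% of the 11201 genes tested were called by limma, and the knockout gave 0 among the 10, where 10.4% were called. Of the 10, 4 had an unadjusted p under 0.05 with the conjugate (Bckdhb, Dld, Mccc1 and Mccc2, all lower) and 4 with the knockout (Bckdhb and Dld lower, Ivd and Dbt higher). Over all 11201 genes tested, 2254 had one with the conjugate and 2700 with the knockout. The median of the 10 was -0.13 with the conjugate and -0.11 with the knockout, beside -0.03 and -0.11 over all genes tested. Under median-of-ratios scaling the knockout medians were 0.02 for the 10 genes and 0.01 over all genes tested.

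Libraries of Gipr liver also held transcripts of pancreatic and muscle marker genes. The 6 pancreatic acinar markers summed to 0.163 to 5102 FPKM with the conjugate, 0.327 to 1826 FPKM in the knockout and 0.649 to 2821 FPKM with vehicle, with medians of 203, 0.543 and 246 FPKM. The 8 muscle markers summed to 0.435 to 292 FPKM with the conjugate, 1.44 to 111 FPKM in the knockout and 0.704 to 145 FPKM with vehicle. In Glp1r liver the highest sums were 0.0752 FPKM for pancreas and 0.808 FPKM for muscle. Of the 10 genes, Bcat2 had the highest correlation with the muscle score over the 15 Gipr liver libraries (Pearson r = 0.76), which share their depth and GC index with it. Of 5 erythrocyte markers, 3 fell with the Gipr conjugate and 0 were called with the knockout by limma. Their sums were 406 to 1170 FPKM with the conjugate, 634 to 859 FPKM in the knockout and 993 to 1678 FPKM with vehicle. The knockout group thus lay below vehicle without overlap, though without a call. By limma, Krt8 fell with the Gipr conjugate (-0.80, adjusted p = 0.0330) and with the knockout (-0.84, adjusted p = 0.0117). Krt18 was called in neither contrast. The part of these markers in the values of the 10 genes was not tested.

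Bckdhb came nearest to a call in Gipr liver. It had 55.6, 47.5, 38.9, 43.1 and 52.4 FPKM with the conjugate, 42.4, 45.0, 48.9, 43.1 and 45.1 FPKM in the knockout and 51.6, 57.9, 59.9, 52.5 and 55.1 FPKM with vehicle. All 5 knockout libraries lay below all 5 vehicle libraries, while the conjugate group overlapped both. The log2 fold change was -0.30 ± 0.09 with the knockout (adjusted p = 0.0518) and -0.23 ± 0.09 with the conjugate (adjusted p = 0.173). Over 12 other settings the knockout value spanned -0.41 to -0.12, with adjusted p of 0.00726 to 0.630, and it was below 0 in all 12.

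Ivd had 60.05, 59.0, 61.1, 64.5 and 67.0 FPKM in the Gipr knockout livers and 49.5, 54.7, 45.2, 50.7 and 62.0 FPKM in vehicle livers, with a log2 fold change of 0.25 ± 0.10 (adjusted p = 0.118). Vehicle library 5 lay within the knockout range and the other 4 lay below it. It passed the threshold under median-of-ratios scaling (0.40, adjusted p = 0.0203) and quantile normalization (0.43, adjusted p = 0.00341). Dld averaged 49.8 ± 5.31 FPKM with the conjugate, 49.1 ± 4.20 FPKM in the knockout and 57.6 ± 5.55 FPKM with vehicle (SD, n = 5 each), with log2 fold changes of -0.21 ± 0.09 and -0.23 ± 0.09.

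Bckdha in Gipr liver was set apart by a single library. Giprfl/fl mGIPR-Ab/P1 library 1, with a GC index of -0.70, had 45.0 FPKM, whereas the other 14 libraries had 93.3 to 153.5 FPKM. The same library had the lowest Bcat2 (7.74 FPKM) and Bckdk (3.60 FPKM) and the highest Ppm1k (36.4 FPKM, against 17.7 to 26.8 FPKM in the other 14). The log2 fold change of Bckdha with the conjugate was -0.25 ± 0.25 (adjusted p = 0.660).

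**Figure D5:**
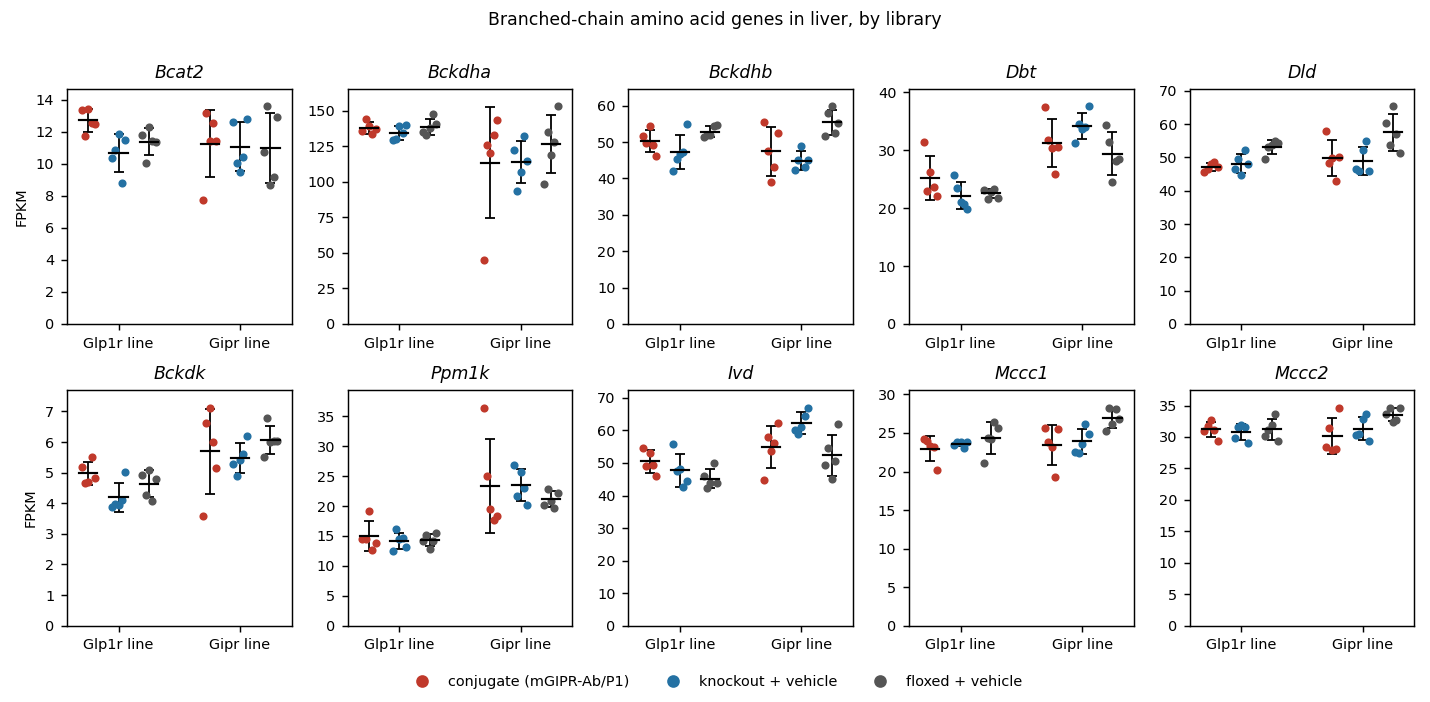
FPKM of the 10 genes in the 30 liver libraries, 1 panel per gene, with the Glp1r line left and the Gipr line right in each panel; points are libraries, and bars show the mean and SD of 5 libraries. In the Glp1r line the conjugate libraries of Dld lie below the vehicle libraries, and in the Gipr line a single conjugate library has 45.0 FPKM of Bckdha.

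Whether the effects differed between tissues was tested as a difference of log2 fold changes, each taken within its own table, over the genes that passed the filter in both. For the Gipr knockout, the effect in fat minus that in liver was called for 3 of the 10 genes, all above 0, while 10.3% of the 10236 genes tested were called. The difference was 0.58 ± 0.19 for Bckdhb (adjusted p = 0.0461), from 0.29 in fat and -0.30 in liver. It was 0.44 ± 0.13 for Mccc1 (adjusted p = 0.0344), from 0.27 and -0.17, and 0.41 ± 0.13 for Mccc2 (adjusted p = 0.0445), from 0.31 and -0.10. The median difference over all genes was 0.20, and under median-of-ratios scaling or quantile normalization none of the 3 was called, with adjusted p of 0.295 to 0.653.

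Ivd, with 0.51 ± 0.17 for the Gipr knockout and 0.55 ± 0.17 for the Gipr conjugate, came close in both without passing (adjusted p = 0.05998 and 0.0582). For the Gipr conjugate 0 of 10 genes and 5.59% of all genes tested were called, for the Glp1r conjugate 0 of 10 and 3.75%, and for the Glp1r knockout 0 of 10 and 0%, with 459 genes at an unadjusted p under 0.05. By limma, 2 of the 10 genes and 2077 of all 10236 tested had an unadjusted p under 0.05 for the Gipr conjugate, the 2 being Ivd and Bcat2, and 0 of 10 did in either Glp1r contrast. Over the 10 genes, fat minus liver spanned -0.17 (Dld) to 0.86 (Bckdha) for the Gipr conjugate, -0.04 (Dld) to 0.60 (Ppm1k) for the Gipr knockout, -0.01 (Bckdk) to 0.35 (Bckdhb) for the Glp1r conjugate and 0.03 (Dbt) to 0.31 (Bckdhb) for the Glp1r knockout.

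The effect of the conjugate in the Gipr line minus that in the Glp1r line was not called for any of the 10 genes in fat (0% of all genes tested, 436 at an unadjusted p under 0.05) or in liver (0%, 624 at an unadjusted p under 0.05), by limma. None of the 10 had an unadjusted p under 0.05. In fat the difference was 0.15 ± 0.23 for Ivd (95% interval -0.32 to 0.62) and 0.19 ± 0.26 for Bcat2 (-0.34 to 0.72), intervals that span both signs. Over the 10 genes the difference spanned -0.23 (Dld) to 0.28 (Bckdha) in fat and -0.24 (Bckdha) to 0.04 (Ppm1k) in liver.

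Genes of neighbouring steps were also called in fat. Over all genes tested in fat, 3.39% were called with the Glp1r conjugate. With the Gipr conjugate and the Gipr knockout, 7.02% and 12.3% were called. Among the transporters and the cytosolic aminotransferase, 2 of 7 rose with the conjugate in Glp1r fat, 1 of 7 in Gipr fat, and with the Gipr knockout 1 rose and 1 fell. Slc43a1, a carrier of large neutral amino acids, averaged 11.3 ± 4.36 FPKM in the Gipr knockout and 2.84 ± 0.477 FPKM with vehicle (1.63 ± 0.21, adjusted p = 9.02e-04). It rose by 1.31 ± 0.21 with the Gipr conjugate and by 1.06 ± 0.24 with the Glp1r conjugate on the log2 scale. Bcat1, the cytosolic aminotransferase, averaged 6.56 ± 1.77 FPKM in the Gipr knockout and 13.7 ± 0.860 FPKM with vehicle (-0.99 ± 0.20, adjusted p = 0.00875). Slc7a8, another neutral amino acid carrier, rose by 0.79 ± 0.18 with the Glp1r conjugate (adjusted p = 0.0302).

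Of 9 genes of the isoleucine and valine branch, 2 rose with the Gipr knockout in fat, and with the Gipr conjugate 1 rose and 1 fell. Aldh6a1, methylmalonate semialdehyde dehydrogenase of the valine branch, averaged 118 ± 18.1 FPKM with the conjugate, 136 ± 21.3 FPKM in the knockout and 86.9 ± 7.74 FPKM with vehicle. Its log2 fold changes were 0.43 ± 0.12 (adjusted p = 0.0459) and 0.63 ± 0.12 (adjusted p = 0.00650). Hsd17b10, of the isoleucine branch, rose by 0.41 ± 0.11 with the knockout, and Hadha, a subunit of the trifunctional protein of fatty acid oxidation, fell with the conjugate (-0.31 ± 0.09). None of the 4 genes of the last leucine steps and none of the 6 propionyl-CoA genes was called in fat.

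The pyruvate and oxoglutarate dehydrogenase complexes, built like the branched-chain complex and sharing Dld with it, had 1 of 11 genes higher and 2 lower with the Gipr conjugate in fat and 2 lower with the knockout. Dlat, the core of the pyruvate complex and so the counterpart of Dbt, averaged 22.4 ± 2.51 FPKM with the conjugate, 23.1 ± 4.03 FPKM in the knockout and 37.5 ± 0.779 FPKM with vehicle. Its log2 fold changes were -0.72 ± 0.11 (adjusted p = 0.00209) and -0.69 ± 0.11 (adjusted p = 0.00256). Pdhx, which tethers Dld to that complex, fell by 0.30 with the conjugate and by 0.31 with the knockout, and the kinase Pdk2 rose by 0.72 ± 0.17 with the conjugate. In Glp1r fat, 1 of 11 rose with the conjugate, the phosphatase Pdp1 (0.39 ± 0.10).

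Among other biotin carboxylases, Pcx, pyruvate carboxylase, was the 1 of 4 that fell in Gipr fat, with log2 fold changes of -0.69 ± 0.18 with the conjugate and -0.77 ± 0.18 with the knockout. Of 11 genes of mitochondrial content, 1 fell with the Gipr conjugate, citrate synthase Cs (-0.38 ± 0.10, adjusted p = 0.0386), and 0 were called with the Gipr knockout. Ppargc1a, a coactivator of mitochondrial genes, was the 1 of 9 regulators called in fat, with 0.61 ± 0.17 in the Gipr knockout at means of 1.76 ± 0.689 FPKM and 0.774 ± 0.177 FPKM with vehicle. None of the 5 genes of lipoate and biotin attachment was called in fat.

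In liver, calls around the pathway were mostly lower, as were calls over all genes in the Gipr line. There 131 genes were higher and 355 lower with the conjugate, and 161 higher and 999 lower with the knockout, a balance that for the knockout was 281 higher and 436 lower under median-of-ratios scaling. Of the last leucine steps, Acat1, which splits acetoacetyl-CoA, fell with the Gipr knockout (-0.53 ± 0.08, adjusted p = 8.21e-04). Of 10 genes of the sister complexes, 5 fell with the Gipr knockout, among them Pdha1, Dlat and Pdk4, where 10.4% of all genes tested were called. With the Gipr conjugate 2 fell, Dlst and Pdha1, where 4.34% of all genes tested were called. With the Glp1r conjugate 2 fell, Pdk4 and Pdha1, where 10.4% of all genes tested were called. Acadsb of the isoleucine branch rose with the Gipr knockout (0.38 ± 0.09) and Hadha fell (-0.40 ± 0.08). Cs, of the 11 genes of mitochondrial content, fell in 3 of the 4 liver contrasts, with log2 fold changes of -0.29 ± 0.08 with the Glp1r conjugate, -0.38 ± 0.08 with the Gipr conjugate and -0.62 ± 0.08 with the Gipr knockout. The mean log2(FPKM + 1) of that list was 6.21 to 6.35 in Gipr knockout livers and 6.45 to 6.67 with vehicle. In the Glp1r line it was 6.34 to 6.49 in the knockout and 6.50 to 6.53 with vehicle. Neither knockout group overlapped vehicle, whereas both conjugate groups did. The part of that score in the values of the 10 genes was not tested. Biotin enzymes fell too, 3 of 4 with the Gipr knockout, where Acacb, the mitochondrial acetyl-CoA carboxylase, averaged 2.92 ± 1.90 FPKM against 15.1 ± 5.74 FPKM with vehicle (-2.07 ± 0.34).

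Slc43a1 also rose in Gipr knockout livers (0.98 ± 0.24, adjusted p = 0.0149), as 1 of 5 carrier genes. Of 6 propionyl-CoA genes, 2 fell with the Glp1r conjugate, Mmut (-0.16 ± 0.04) and Mmab (-0.42 ± 0.11), and 1 with the Gipr knockout, Pcca (-0.40 ± 0.10). Of 9 regulators, Mlxipl, the carbohydrate-responsive factor ChREBP, rose with the Glp1r conjugate (0.52 ± 0.08), and Pparg (-1.15 ± 0.29) and Ppara (-0.47 ± 0.12) fell with the Gipr knockout. Of 5 genes of lipoate and biotin attachment, Hlcs fell with the Glp1r conjugate (-0.41 ± 0.09) and Btd with the Gipr knockout (-0.33 ± 0.10). The Glp1r knockout gave 0 calls in any list in liver or fat by limma.

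The genes most like the 10 in fat, by Pearson correlation of log2(FPKM + 1) with their mean over 30 libraries, each table centred, were Trap1 (0.941), Mtg1 (0.931), Hsd17b10 (0.930), Gcdh (0.928) and Lgals12 (0.922), out of 8473 genes of at least 5 FPKM. In liver they were Acy1 (0.814), Tmem14c (0.791), Txn2 (0.789), Rarres2 (0.776) and Sdhb (0.775), out of 5928. The 10 genes did not all move together. Correlations between pairs of them spanned -0.50 (Dld and Ppm1k) to 0.89 (Mccc1 and Mccc2) in fat, where Ppm1k was negative with every other gene. In liver they spanned -0.74 (Bcat2 and Dld) to 0.67 (Bckdha and Bckdk), so the mean there averages genes that moved in opposite directions. The points share their libraries, and so the depth, tissue make-up and GC index of each.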

How the data were processed

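Bulk poly(A) RNA of inguinal fat and liver was measured in 60 libraries, 12 groups of 5, in 4 tables of 15. The authors deposited FPKM, computed with RSEM per the submitters' processing notes. No source used here gives its version, nor the aligner, build or annotation. RNA was extracted by either of 2 methods, and the labels do not say which library had which. FPKM is scaled to library size and transcript length, so a change in abundant genes shifts all others, and no counts were available for a count test.

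Values were analysed as log2(FPKM + 1), which understates changes of low genes, with limma 3.58.1 in R 4.3.3. Genes with at least 1 FPKM in 5 of the 15 libraries were tested, the 3 groups of a table were fitted together with a mean-variance trend, and p-values were adjusted by Benjamini-Hochberg over all genes tested, called under 0.05. Differences between effects were fitted over 30 libraries of a pair of tables. All 10 genes are plotted for every contrast with vehicle, differences between effects are given as the range over the 10 and for a few of them, and from other gene lists up to 3 called genes of smallest p. The members and lists were chosen with earlier results of these data known. The fit was tested on simulated data. Figures were drawn with Python 3.11.15 and matplotlib 3.10.9.

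Depth was estimated from the smallest values of single-transcript genes and is approximate, so no counting intervals are given. Alternatives were a pseudocount of 0.1, no filter or a filter at a mean of 5 FPKM, 3 rescalings, array weights, a replicate block, fits of 2 groups, an adipocyte score term, libraries left out by B cell score or library number, and leaving out single libraries. The higher series of library numbers held no vehicle library in Gipr fat and no knockout library in Gipr liver. It was thus uneven between the groups compared, and the labels do not say what the series stands for. Covariates for the GC index and the B cell score, and leaving out libraries with a GC index below -0.4, were added after seeing the data. Transcript GC was known for 98.1% of the genes tested, from GENCODE vM21, whose build may differ from the authors'. The result of 1 gene is not reported here.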

Additional observations from a re-analysis of the deposited data

Results flagged for a closer look

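Of 120 pairs of a gene and a group, 6 held a library far from the other 4 of its group, a share that chance alone gives at about 1 in 20. Bckdha was 45.0 FPKM in Giprfl/fl mGIPR-Ab/P1 liver library 1, against 120.3 FPKM in the nearest library. Bckdk was 5.03 FPKM in Glp1rWnt1-/- liver library 5, against 4.12 FPKM in the nearest. Ppm1k was 2.95 FPKM in Giprfl/fl vehicle fat library 2, against 1.82 FPKM in the nearest. Ppm1k was 19.3 FPKM in Glp1rfl/fl mGIPR-Ab/P1 liver library 3, against 14.6 FPKM in the nearest. Mccc1 was 20.2 FPKM in Glp1rfl/fl mGIPR-Ab/P1 liver library 5, against 23.2 FPKM in the nearest. Mccc2 was 33.0 FPKM in Glp1rfl/fl mGIPR-Ab/P1 fat library 5, against 49.4 FPKM in the nearest.

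The effect of the Gipr knockout differed between fat and liver for 3 of the 10 genes by an interaction contrast in limma, while 10.3% of the 10236 genes tested were called. The difference in log2 fold change, fat minus liver, was 0.58 for Bckdhb, 0.44 for Mccc1 and 0.41 for Mccc2. The median difference over all genes tested was 0.20. Each of the 3 calls was lost in 10 or more of the 20 fits that left out 1 library. None of the 3 was called under median-of-ratios scaling or quantile normalization.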

How the results depend on the processing

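Over the alternatives, 3466 results for single genes were recomputed, of which 3326 kept direction and side of the threshold, 87 lost a call, 52 gained one and 1 reversed. The reversed one was Mccc2 with the conjugate in Glp1r fat, at -0.21 with the adipocyte score as a covariate (adjusted p = 0.0255, against 0.00 without it), and the cause was not tested. The number of the 10 genes called changed as follows. For the conjugate in Glp1r fat it was 0, 6 with array weights, 1 without B cell-rich libraries and 2 with the adipocyte score. For the conjugate in Gipr fat it was 1, 0 under median-of-ratios scaling or without the higher library numbers, 3 with array weights, and 2 with the replicate block or in a fit of 2 groups. For the Gipr knockout in fat it was 3, 1 under the stricter filter, which drops Ppm1k, 6 with array weights or the GC index, 0 with the B cell score, and 2 in 8 settings (no filter, the 3 rescalings, 2 groups, and without the higher library numbers, a GC index below -0.4 or B cell-rich libraries). For the conjugate in Glp1r liver it was 1 and 0 under quantile normalization. For the Gipr knockout in liver it was 0, 1 in 6 settings (the stricter filter, median-of-ratios, quantile, 2 groups, without the higher library numbers and without a GC index below -0.4), 2 with a common sum or array weights, and 3 with the GC index. For the difference between tissues it was 0 for the Glp1r conjugate and 3 with array weights, and for the Gipr knockout 3, with 2 without a filter, 5 under a common sum or the GC index, 7 with array weights and 0 under median-of-ratios or quantile scaling. Array weights called 26.6% to 43.8% of all genes in the fat conjugate and Gipr contrasts, so those counts stand beside a raised background. Shares under the GC index and the other settings are not given here, so the counts there have no background beside them. Leaving out each library in turn gave 1 to 3 for the Gipr knockout in fat, 0 to 3 for its difference between tissues, 0 to 1 for the conjugate in Glp1r fat, Gipr fat, Glp1r liver and the Gipr difference between tissues, and 0 in the other comparisons. Deviations of same-numbered libraries had correlations of -0.84 to 0.71. Their mean was 0.17 in Gipr fat, against -0.03 between differently numbered libraries, and -0.06 to 0.07 in the other tables. These values are too spread to show whether the numbers pair the libraries. The replicate block changed no count other than that of the conjugate in Gipr fat. Depth is only estimated, and Ppm1k was the lowest transcript of the 10 in fat.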
